A study of Homo sapiens with 6 samples.

Results

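Growth arrest in fibroblasts takes more than one form, and 2 of them are compared here through their R-loop maps: senescence brought on by ectopic Ras and quiescence brought on by starvation. The senescent list held 85405 peaks on chromosomes 1 to 22 and X and the quiescent list 9727, which together make 95132 of the 196739 peaks on those chromosomes in the 3 lists of the series. The members are all peaks of the senescent and the quiescent RH-MNase library, with no choice by value. Because the lists differ in length, the senescent list was also shortened to its 9727 peaks of highest score, and this is called the shortened senescent list.

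R-loops are stretches in which a nascent or other RNA pairs with one DNA strand and leaves the opposite strand unpaired. They form behind RNA polymerase, are known to be frequent at the GC-rich starts of active genes, and are removed by RNase H and by helicases. Senescent cells stay metabolically active, are known for secreting inflammatory proteins, and leave the cell cycle for good; quiescent cells leave it reversibly and return when growth factors come back.

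MapR, the assay used, tethers micrococcal nuclease to RNA-DNA hybrids through a catalytically dead RNase H (RH-MNase) and sequences the chromatin fragments that are released. All cells were IMR90, an established line of embryonic lung fibroblasts, labelled wild type and grown at 2% oxygen. The proliferating cells carried a control vector, the senescent cells expressed ectopic Ras (oncogenic, per the labels' protocol), and the quiescent cells were starved. The sources used here do not state what was withdrawn, for how long, or whether starved cells carried a vector. The comparison of the arrested states is therefore also one of Ras with starvation, and these cannot be told apart. Each state has 1 RH-MNase library, so no p-value was computed and no difference below has a replicate check. The background libraries made with GST-MNase are not analysed here.

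The deposited lists give a position and a whole-number score of at least 10 for each peak. The scale of the score is not stated, so scores serve only to rank peaks within a list, and ranks from lists of different lengths show no change. Read depth is unknown, so neither the number nor the width of peaks can be set against it. The senescent peaks had a median width of 468 bp and covered 54.0 Mb, and the quiescent peaks had a median of 352 bp and covered 4.12 Mb. The shortened senescent list held wider peaks, with a median of 795 bp and 9.89 Mb covered. All intervals are 95% Wilson intervals for shares and Newcombe intervals for differences, and they cover counting error only.

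Promoters of 6 genes with a peak at the start are shown, 2 for each pattern of peaks. Each window is printed whole, and a marked motif need not lie under the peak. They come from RefSeq (GRCh38.p14) and run 5′ to 3′ on the gene's strand, from 250 bases before to 50 after the start. Capitals mark 2 motifs. One is the GC box, GGGCGG on either strand, bound by Sp1-type factors. The other is a form of the ETS family motif, spelled CCGGAAG on either strand.

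METTL27 and RANBP10 had gene-end peaks among the highest of both states. Their quiescent peak lay at the start, while the senescent one was taken from either gene end. The METTL27 window (chr7:73842467-73842766, minus strand) lay under its quiescent peak with 300 of 300 bases, and the RANBP10 window (chr16:67806511-67806810, minus strand) with 233. Each holds 2 GC boxes; both lay under the peak at METTL27 and 1 did at RANBP10.
METTL27: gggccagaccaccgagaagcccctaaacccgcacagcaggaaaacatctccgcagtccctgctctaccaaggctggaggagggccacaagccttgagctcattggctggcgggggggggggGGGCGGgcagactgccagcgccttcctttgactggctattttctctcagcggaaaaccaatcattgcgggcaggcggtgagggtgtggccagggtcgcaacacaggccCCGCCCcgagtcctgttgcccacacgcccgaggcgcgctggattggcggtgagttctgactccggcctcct
RANBP10: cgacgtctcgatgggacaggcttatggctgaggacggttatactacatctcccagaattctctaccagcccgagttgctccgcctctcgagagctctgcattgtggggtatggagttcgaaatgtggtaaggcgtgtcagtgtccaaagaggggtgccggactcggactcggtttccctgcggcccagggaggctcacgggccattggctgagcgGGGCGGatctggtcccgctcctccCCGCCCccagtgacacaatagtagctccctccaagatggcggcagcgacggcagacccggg

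JKAMP and PQBP1 had a quiescent peak at the start and no senescent peak near the gene. The JKAMP window (chr14:59484267-59484566, plus strand) had 93 of its 300 bases under the quiescent peak, and holds 2 GC boxes and 1 ETS motif, none of them under the peak. The PQBP1 window (chrX:48897680-48897979, plus strand) lay wholly under its peak and holds neither.
JKAMP: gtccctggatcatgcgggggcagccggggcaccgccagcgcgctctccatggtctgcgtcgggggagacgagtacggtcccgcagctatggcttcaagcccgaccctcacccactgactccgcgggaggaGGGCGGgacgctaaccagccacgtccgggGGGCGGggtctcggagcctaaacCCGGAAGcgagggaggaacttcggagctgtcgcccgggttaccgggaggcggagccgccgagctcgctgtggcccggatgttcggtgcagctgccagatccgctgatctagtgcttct
PQBP1: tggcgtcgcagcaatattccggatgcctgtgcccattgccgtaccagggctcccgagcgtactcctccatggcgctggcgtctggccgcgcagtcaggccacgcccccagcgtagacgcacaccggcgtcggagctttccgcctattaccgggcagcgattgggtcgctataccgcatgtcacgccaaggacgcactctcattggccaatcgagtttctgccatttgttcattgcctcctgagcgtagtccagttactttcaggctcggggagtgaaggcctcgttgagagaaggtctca

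DNASE1L2 and PIGU had a high senescent peak and no quiescent one near the gene. Of the DNASE1L2 window (chr16:2236194-2236493, plus strand) 283 bases lay under the senescent peak, and it holds 1 GC box, which was under the peak. Of the PIGU window (chr20:34677043-34677342, minus strand) 54 bases did, since that peak ran on into the gene, and neither of its 2 GC boxes was wholly under it.
DNASE1L2: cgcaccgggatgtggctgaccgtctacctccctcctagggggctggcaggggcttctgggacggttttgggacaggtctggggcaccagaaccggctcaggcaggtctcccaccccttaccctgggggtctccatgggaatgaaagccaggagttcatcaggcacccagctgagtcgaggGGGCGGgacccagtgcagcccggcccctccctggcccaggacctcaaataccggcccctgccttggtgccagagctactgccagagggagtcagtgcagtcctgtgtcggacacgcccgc
PIGU: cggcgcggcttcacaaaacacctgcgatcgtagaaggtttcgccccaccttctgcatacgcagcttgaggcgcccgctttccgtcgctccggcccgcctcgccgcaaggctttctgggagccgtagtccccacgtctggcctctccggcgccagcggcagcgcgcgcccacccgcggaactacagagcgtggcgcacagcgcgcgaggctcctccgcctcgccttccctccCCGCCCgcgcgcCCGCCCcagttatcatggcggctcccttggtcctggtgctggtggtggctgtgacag

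Nearly every quiescent peak lay where senescent cells also had one. Of the 9727 quiescent peaks, 9156 overlapped a senescent peak by at least 1 bp, which is 94.1% (93.6 to 94.6). In the other direction 8489 of the 85405 senescent peaks overlapped a quiescent one, 9.94% (9.74 to 10.1), and 76916 did not. The quiescent list was thus largely contained in the senescent list, while most senescent peaks had no quiescent partner.

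At equal number of peaks the overlap was far smaller. Of the quiescent peaks 3939 (40.5%, 39.5 to 41.5) overlapped a peak of the shortened senescent list, and 3474 of its peaks (35.7%, 34.8 to 36.7) overlapped a quiescent one. So most quiescent sites were present in the senescent list, but fewer of them among its peaks of highest score. The shortening fell inside a block of 1327 peaks that share the score 30, where width decided. The 455 kept there were at least 973 bp wide and 47.7% of them overlapped a quiescent peak; the 872 left out were at most 972 bp wide and 12.0% of them did.

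Overlap followed the rank by score in both lists. In 5 groups of equal size by quiescent score, from highest to lowest, 55.2%, 45.8%, 38.8%, 33.9% and 28.7% of quiescent peaks overlapped the shortened senescent list. With the whole senescent list the shares lay between 96.6% (second group) and 89.3% (lowest group). For senescent peaks in the quiescent list they were 29.3%, 11.5%, 5.65%, 2.42% and 0.843%. The lower a senescent peak stood in its list, the less often quiescent cells had a peak there, and even in the highest group most had none. From the highest to the lowest senescent group the median width also fell, from 753 to 335 bp, and the share at gene ends from 40.7% to 15.7%. The parts of score, width and position in this fall were not tested.

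**Figure D1:**
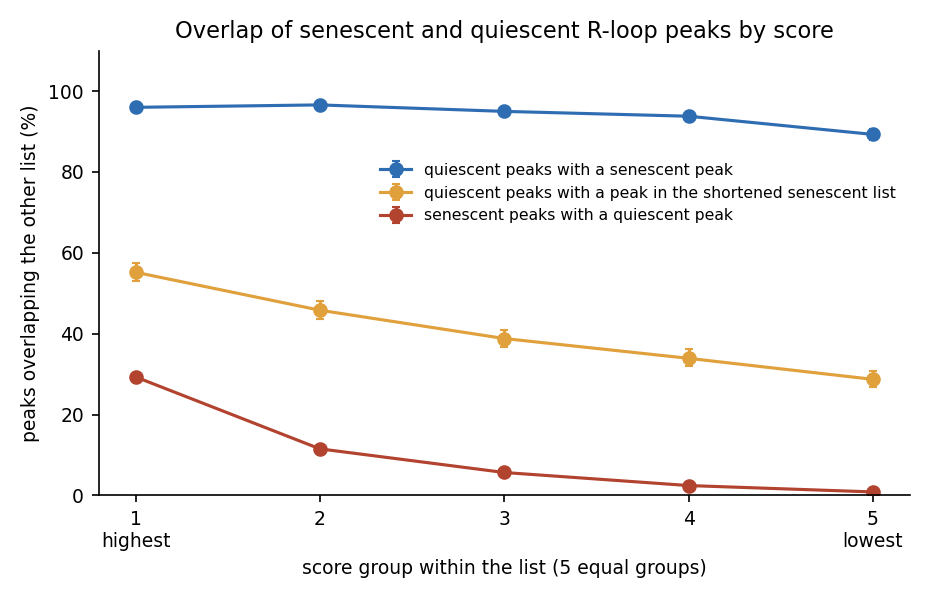
Share of peaks (%) that overlapped the other list, for 5 groups of equal size ranked by score from highest to lowest; bars on the points are 95% Wilson intervals. Senescent peaks in the quiescent list fall from 29.3% to 0.843%, whereas quiescent peaks in the whole senescent list stay between 89.3% and 96.6%.

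Senescent peaks shared with quiescent cells were the wide ones at gene ends. A gene end here means the 1000 bp to each side of the first or last annotated base of a protein-coding or lncRNA gene. Senescent peaks with a quiescent partner had a median width of 1097 bp and 65.4% of them lay at gene ends; those without had a median of 437 bp and 21.9% lay there. By width, 0.705% of senescent peaks up to 200 bp overlapped a quiescent peak, against 60.0% of those over 2000 bp. Wider intervals meet other peaks more often by their width alone, and the part of width in this pattern was not tested. Both kinds also differed in proliferating cells: 99.8% of the shared and 62.0% of the unshared senescent peaks overlapped a proliferating peak.

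Where peaks coincided, the quiescent peak was a short stretch inside a longer senescent one. There were 9239 overlapping pairs, with a median width of 361 bp on the quiescent and 1165 bp on the senescent side. The senescent peak was the wider in 94.2% of pairs, by a median ratio of 2.99, and 76.0% of pairs (7026) had the quiescent peak wholly inside it. The middles of paired peaks lay a median of 213 bp apart. In 655 cases 1 senescent peak spanned at least 2 quiescent peaks; BCL9L, which encodes a Wnt pathway co-activator, had a senescent peak of 10966 bp (chr11:118915453-118926418) over 7 quiescent peaks, a case chosen after its values were seen. Scores of paired peaks were weakly related across the 9239 pairs, with a Spearman correlation of 0.206 given as a description; pairs can share a peak.

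**Figure D2:**
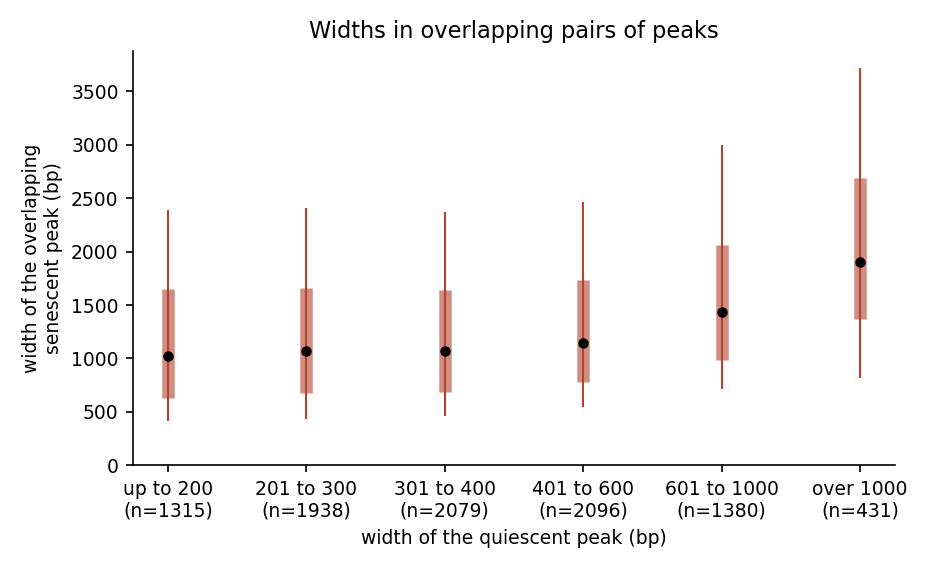
Width of senescent peaks (bp) that overlap a quiescent peak, by the width of the quiescent peak (bp); points are medians, thick bars the middle part of the pairs from the lower to the upper quartile, and thin lines run from the lowest to the highest decile. Senescent partners of quiescent peaks up to 200 bp have a median of 1022 bp, and those of quiescent peaks over 1000 bp a median of 1901 bp.

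The 571 quiescent peaks with no senescent partner were narrower and lower in score by median than those with one. Their median width was 268 bp and their median score 17, against 360 bp and 20 for quiescent peaks with a partner. Of these 571, 539 overlapped a proliferating peak and 32 overlapped neither list. A senescent peak was often near: the median gap was 711 bp, and 316 of the 571 (55.3%) had one within 1000 bp. Only 102 (17.9%) were more than 10000 bp from any senescent peak. Peaks of at most 160 bp made up 18.2% of the unpartnered and 7.45% of the partnered quiescent peaks. Not all unpartnered peaks were low: 65 had a score of at least 30. Of these 65, 47.7% were at most 160 bp wide, against 17.1% of all 1518 quiescent peaks with such a score. Whether such narrow peaks have a technical origin was not tested.

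Nearly all quiescent sites, and fewer of the senescent ones, were also present in proliferating cells. Of the quiescent peaks 99.4% overlapped the proliferating list, of all senescent peaks 65.7%, with 29255 that did not, and of the shortened senescent list 92.5%. Against the 9727 highest proliferating peaks, the shares were 60.4% (59.4 to 61.4) of quiescent and 42.8% (41.8 to 43.8) of shortened senescent peaks. Of the shortened senescent peaks without a quiescent partner, 724 of 6253 lay outside the proliferating list. Of the 9727 highest proliferating peaks, 49.7% overlapped a quiescent and 40.4% a shortened senescent peak. By bases the direction mattered. Of the bases in the quiescent list 67.1% lay under these proliferating peaks, and of those in the shortened senescent list 55%. Of the bases in these proliferating peaks, 14.8% lay under quiescent and 29.1% under shortened senescent peaks. At equal number, a larger share of quiescent than of senescent peaks thus met the highest proliferating peaks, in these single libraries. The senescent peaks covered more of the bases of those proliferating peaks.

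A larger share of quiescent than of senescent peaks lay at gene ends. In the quiescent list 60.7% of peaks lay at a gene end, 28.5% inside a gene and 10.8% outside genes. The senescent list had 26.2%, 48.1% and 25.6%, a gene-end difference of -34.5 percentage points (-35.5 to -33.4; senescent minus quiescent). The shortened senescent list had 42.7%, 38.3% and 19.0%, and its gene-end difference was -18.0 points (-19.4 to -16.6). A difference in the same direction thus remained at equal number. The whole proliferating list had 23.6% at gene ends, and its 9727 highest peaks had 59.0%. A share near the quiescent one was therefore not particular to quiescent cells. Overlap depended on position as well: 54.4% of shortened senescent peaks at gene ends overlapped a quiescent peak, against 23.3% of those inside and 18.7% of those outside genes.

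**Figure D3:**
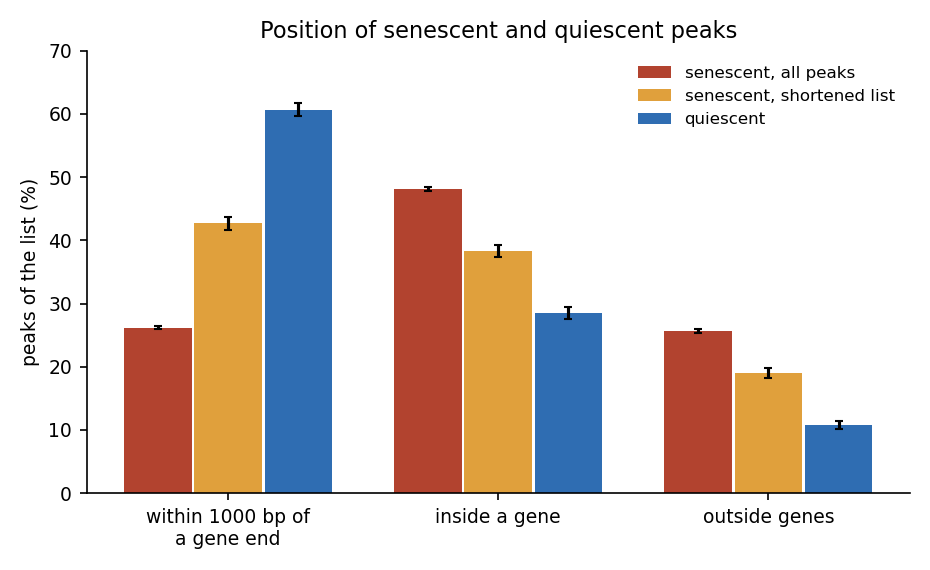
Share of peaks (%) at gene ends, inside genes and outside genes in the whole senescent, shortened senescent and quiescent list; error bars are 95% Wilson intervals. Gene ends hold 60.7% of quiescent, 42.7% of shortened senescent and 26.2% of all senescent peaks.

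The gene ends in question were mostly starts. The strand of 15813 protein-coding genes was known from the RefSeq promoter table. Of these, 27.6% had a quiescent peak within 1000 bp of the start and 2.97% within 1000 bp of the far end, a ratio of 9.30. The whole senescent list had 68.2% and 21.0% (ratio 3.25), and the shortened list 18.2% and 3.81% (ratio 4.79). Among the 13836 genes longer than 4000 bp the ratios were 11.3, 3.64 and 5.65, in the same order. At equal number, quiescent peaks were at more starts and at fewer far ends than senescent ones.

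Quiescent peaks also lay closer around the start itself. For peaks whose middle was within 1000 bp of a start, the median position was 43.5 bp downstream in quiescent cells, 105 bp in the senescent list and 121 bp in the shortened one. The downstream side held 54.3%, 58.2% and 60.5% of these peaks. Of all quiescent peaks, 5.52% had their middle in the 100 bp before a start and 5.10% between 200 and 300 bp after it, with 4.17% and 4.10% in the 2 windows next after the start.

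**Figure D4:**
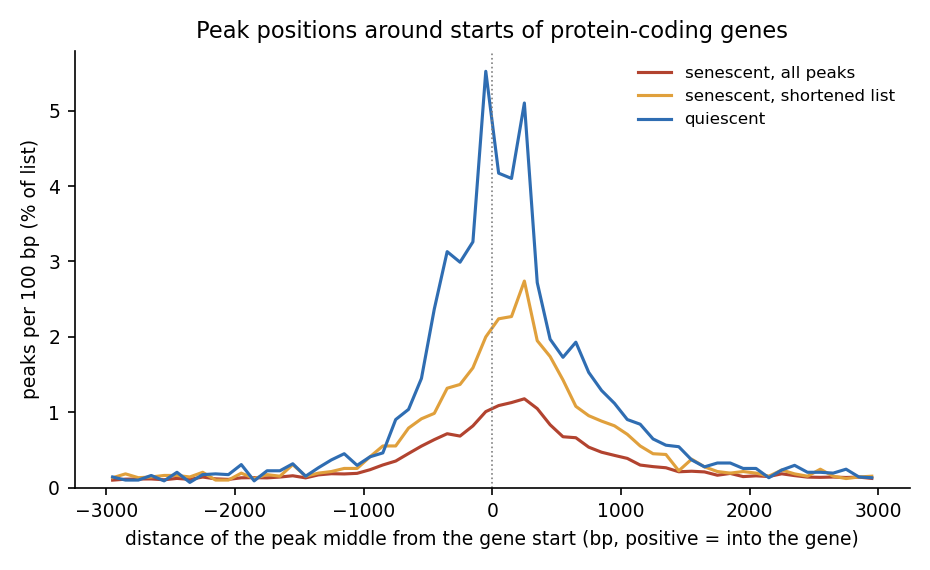
Share of all peaks in a list (%) whose middle falls in each 100 bp window, by distance from the nearest protein-coding start (bp, negative before the start). The quiescent list reaches 5.52% just before the start and 5.10% between 200 and 300 bp after it, and the shortened senescent list reaches 2.74% in that second window.

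Among 19821 protein-coding genes, 5496 (27.7%) had a quiescent and 13926 (70.3%) a senescent gene-end peak. Both lists had one at 5431 genes (27.4%), the quiescent list alone at 65 (0.328%) and the senescent list alone at 8495 (42.9%). With the shortened senescent list, which had 3932 such genes (19.8%), 2407 (12.1%) were in both, 3089 (15.6%) in the quiescent list alone and 1525 (7.69%) in the senescent list alone. So the side with more genes of its own changed with the length of the list, and the 65 are the few genes where quiescent cells had a start or end peak that 85405 senescent peaks did not reach. Of those 65, 64 had one at a gene end in the proliferating list and 27 had a senescent peak elsewhere in the locus, the gene with 1000 bp on each side. Neighbouring genes can share a peak: 19.2% of quiescent and 17.4% of senescent peaks at coding gene ends touched more than 1 gene.

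The genes with high gene-end peaks in both states were of varied function, taken by the best lower rank in the pair of lists. For such a gene the quiescent and the senescent peak need not overlap or lie at the same end. METTL27, which encodes a methyltransferase-like protein, had a quiescent peak of score 44 (rank 232, 714 bp) and a senescent peak of score 57 (rank 196, 1213 bp). RANBP10, a Ran-binding protein gene, had score 43 (rank 275, 404 bp) and score 57 (rank 193, 1653 bp). Both, whose promoters are printed above, were wider on the senescent side, as were the other 8. SLC2A4RG had widths of 1160 bp in quiescent and 1544 bp in senescent cells, and GPSM3 had 260 and 1655 bp. The remaining 6 were MYMX, a muscle cell fusion protein gene, OGDH, a subunit gene of the oxoglutarate dehydrogenase complex, SPINT1, a protease inhibitor gene, FAM20C, a secretory pathway kinase gene, ARHGAP21, the gene of a GTPase-activating protein, and IMPDH1, an enzyme gene of guanine nucleotide synthesis.

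Of 19821 protein-coding genes, 5496 had a quiescent gene-end peak, and at 25 of these the nearest senescent peak was over 5000 bp away from the gene. Among the 10 of highest quiescent score were JKAMP, VWA5A, PQBP1, ZFYVE26, URB1, SEC62, NUBP1, LRPPRC and ZSCAN2. JKAMP (chromosome 14, 59484517 to 59505410), the gene of an endoplasmic reticulum membrane protein, led with a score of 36 (rank 660, 323 bp). PQBP1 (chromosome X, 48897930 to 48903143), the gene of a splicing-associated protein that also takes part in sensing viral DNA, had a score of 29 and 484 bp. SEC62, a gene of protein import into the endoplasmic reticulum, had 22 and 392 bp; LRPPRC, a gene of mitochondrial mRNA stability, had 19 and 379 bp; and URB1, a gene of ribosome assembly, had 23 and 246 bp. All 10 had a proliferating peak at one or the other gene end, with scores from 29 to 65. The best rank among them in the quiescent list was 660.

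In the other direction, 1116 genes had a gene-end peak in the shortened senescent list and no quiescent peak within 5000 bp. This number cannot be set against the 25, which had to be clear of the whole senescent list and not of a list of equal length. With the whole senescent list, 6876 of the 13926 genes with a senescent gene-end peak had no quiescent peak within 5000 bp. The lists compared there differ in length. The 10 highest were CAPN1, NAPSA, FEV, CPS1, SEC14L2, CCDC112, RDH10, PIGU, EHD4 and DNASE1L2. CAPN1 (chromosome 11, 65181373 to 65212006), the gene of the protease calpain-1, had a senescent peak of score 72 (rank 21, 919 bp). CPS1, a urea cycle enzyme gene, had 67 and 681 bp, and FEV, a transcription factor gene known from serotonin neurons, 71 and 411 bp. PIGU, a gene of membrane anchor attachment, had 59 and 1002 bp, with 9 senescent peaks in the locus, and DNASE1L2, a DNase gene, had 59 and 561 bp. All 10 again had a proliferating peak at a gene end, with scores from 43 to 79.

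Promoters with peaks were GC-rich whichever state had them. Letters were counted in the 300 bp windows of the 15813 genes, on both strands, each motif by itself and irrespective of overlap with another. The windows cover 82.7% of coding genes outside chromosome 8, which was not used here. Median GC content was 67.7% for starts with both a quiescent and a shortened senescent peak, 66.7% for quiescent without shortened senescent, 65.3% for shortened senescent without quiescent, 64.3% for starts with only a lower senescent peak, and 52.0% for starts with neither, against 62.7% for all. The GC box was in 78.0%, 74.9%, 71.2%, 67.0% and 30.4% of them, and in 58.3% of all. The ETS motif was in 15.4%, 20.8%, 18.2%, 17.5% and 5.65%, and in 14.1% of all. TATAAA, a core promoter element of many tissue-specific genes, was in 3.85%, 4.24%, 4.66%, 7.09% and 18.8%, and in 9.75% of all. On each of these measures the groups with a peak lay closer to each other than to starts with none. GC skew, the excess of G over C on the gene's strand that favours R-loops, had a median within 0.0196 of 0 in every group. Most of each window lies before the start, so these medians cannot show whether the transcribed sequence after it is skewed. Skew there was not tested.

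The 15 gene lists are given beside the shares of all coding genes; pairs of scores below are in the order quiescent, senescent. In the shortened comparison the quiescent share was higher for 11 lists, equal for 1 and lower for 3, as it was for all coding genes (27.7% against 19.8%). Immediate early genes and MAPK feedback genes, which respond to growth factors and lie downstream of Ras, had a gene-end peak at 22 of 33 in quiescent, 32 of 33 in senescent and 17 of 33 in shortened senescent cells, with 15 in both of the equal-sized lists. EGR1, an immediate early transcription factor gene, had a quiescent score of 55 (rank 65, 153 bp wide) and a senescent peak of 29 that was 2148 bp wide. SPRY2, a feedback inhibitor gene of this pathway, had 35 and 17, and JUNB, a subunit gene of AP-1, had 26 and 34. EGR1 and SPRY2 did not reach the shortened senescent list and JUNB did.

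Genes of the senescence-associated secretory phenotype, whose products senescent cells secrete, had a peak at 12 of 36 in quiescent, 28 of 36 in senescent and 8 of 36 in shortened senescent cells. These are 33.3%, 77.8% and 22.2%, against 27.7%, 70.3% and 19.8% of all coding genes. All 12 genes with a quiescent peak were among the 28. MMP14, a matrix protease gene, had a score of 37 in quiescent and 34 in senescent cells, with 10.4% and 49.1% of the locus covered by peaks. CXCL3, a chemokine gene, had 32 and 32, and 22.4% and 58.5% covered; TIMP2, a protease inhibitor gene, had 30 and 45. The median covered percent over the 36 genes was 0 in quiescent cells, as for all coding genes, and 12.6 in senescent cells, against 3.20 for all coding genes. The means were 2.35 (SD 5.16 across genes) and 22.9 (SD 24.8), against 0.985 and 8.04 for all coding genes. Senescent cover was the higher at 29 of the 36, and at 15816 of all 19821 coding genes, which is near the same share.

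Genes of quiescence, FOXO and starvation had peaks at 11 of 30 in quiescent and all 30 in senescent cells, and at 8 in the shortened list. These are 36.7%, 100% and 26.7%, against 27.7%, 70.3% and 19.8% of all coding genes. SESN1, a stress-induced inhibitor gene of growth signalling, had a quiescent score of 42 (rank 312) over 146 bp and a senescent score of 28 over 1946 bp. CCNG2, a cyclin gene tied to cell cycle exit, had 22 and 35. CDK inhibitor and p53 genes had 9, 19 and 7 of 20: TP53I3 had a score of 33 and 41, CDKN2D 32 and 27, and BAX, a cell death gene, 23 and 55. In these lists, as in the other 13, more members had a peak in the whole senescent list than in the quiescent one.

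E2F and cell cycle genes, which cycling cells use for DNA replication, had 6, 29 and 6 of 32, and 1 gene was shared between the equal-sized lists. The 18.8% with a quiescent peak lie below the 27.7% of all coding genes, while the 90.6% with a senescent peak lie above 70.3%. In the shortened list the share was 18.8%, near the 19.8% of all coding genes. Other lists also lay above 70.3% in the whole senescent list, such as lysosome and autophagy genes with 96.4%. CCNE2, a cyclin E gene, had 16 and 29. Replication-dependent histone genes on chromosomes 1 and 6, many of which share peaks with neighbours, had 3, 40 and 2 of 69, and H1-5 led with a quiescent score of 39. H4C14, a histone H4 gene, had a quiescent peak of score 25 and none in senescent cells.

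Lists for cell maintenance and zinc fingers lay above the share of all coding genes in the quiescent list (27.7%) and also in the whole senescent list (70.3%). Ribosomal protein and zinc finger genes were nearest to the former, with 33.7% and 33.3%. In the shortened list the lists lay above 19.8%, except for ribosomal protein genes (16.3%). Lysosome and autophagy genes had 12, 27 and 8 of 28, in the order quiescent, senescent, shortened senescent, with ATG12, an autophagosome gene, at 39 and 16. Cholesterol and SREBP genes had 11, 26 and 8 of 30, with SREBF1, a master regulator gene of lipid synthesis, at 53 (rank 72) and 37, and INSIG1, its sterol-responsive brake, at 36 and 22. Ribosomal protein genes had 29, 75 and 14 of 86, with RPL15 at 44 and 39. Zinc finger genes had 172, 414 and 110 of 517, with ZNF628 at 65 (rank 17) over 154 bp and 47 over 222 bp.

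Fibroblast matrix genes had 18 of 33 in quiescent, 28 in senescent and 16 in shortened senescent cells. These are 54.5%, 84.8% and 48.5%, against 27.7%, 70.3% and 19.8% of all coding genes. COL1A1, a collagen I chain gene, had a score of 39 in each, over 342 and 3043 bp, and covered 8.50% and 64.4% of the locus. LOX, a collagen crosslinking gene, had 32 and 26, and COL5A1 had 29 and 58. For genes of interferon responses and of nucleic acid sensing the counts were 8, 23 and 9 of 31, which is 25.8%, 74.2% and 29.0%. It is one of the 3 lists with fewer quiescent members than in the shortened list. IRF9 had 44 and 35, and MAVS 26 and 34.

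R-loop factors had 11, 27 and 3 of 30, so 36.7% in quiescent against 10.0% in the shortened senescent list. All coding genes had 27.7% and 19.8% in these 2 lists. SRSF1, a splicing factor gene whose loss is known to raise R-loops, had 44 and 29, and BRCA1, a DNA repair gene whose senescent peak is also that of its neighbour NBR1, had 24 and 45. XPO1, the gene of the nuclear export receptor in the study's title, had a quiescent score of 33 (rank 964, 410 bp) and a senescent score of 18 (1038 bp). DDX1, the helicase gene named there too, had 16 (669 bp) and 26 (1114 bp). The lists of markers of other tissues (2, 18 and 3 of 38) and olfactory receptors (0, 11 and 2 of 389) had the lowest quiescent shares beside the histones. Neither HRAS nor NRAS had a peak in either arrested state.

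**Figure D5:**
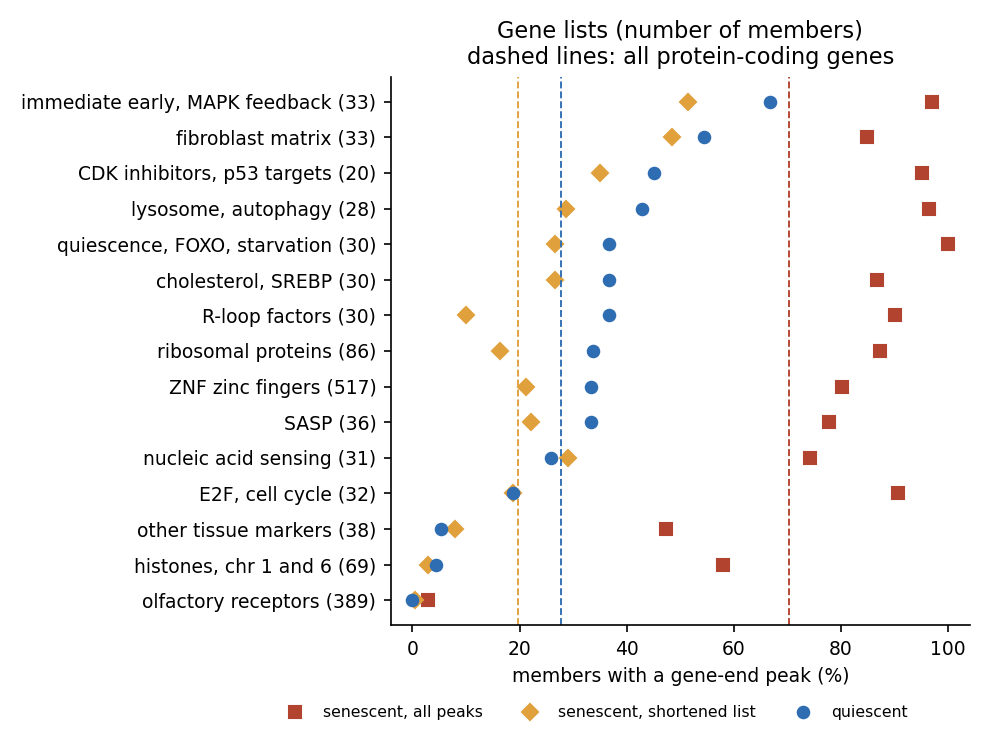
Share of the members of each list (%) with a gene-end peak in the quiescent (circles), shortened senescent (diamonds) and whole senescent (squares) list, number of members in brackets; dashed lines give the share of all protein-coding genes. Immediate early genes are highest in quiescent cells (66.7%) and olfactory receptors lowest (0%).

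Genes that mark cell types were looked at too, but peaks lie on DNA and give no RNA level. Of 11 fibroblast markers 3 had a quiescent and 7 a senescent gene-end peak, of 6 epithelial markers 2 and 4, of 4 endothelial markers 0 and 1, and of 5 blood markers 0 and 2. These fibroblast counts are no higher than the 27.7% and 70.3% of all coding genes. In the shortened senescent list 5 fibroblast, 2 epithelial, 0 endothelial and 0 blood markers had one, against 19.8% of all coding genes. With so few markers and no RNA level, none of these counts was taken to bear on the label. COL1A1, FN1 and PDGFRB were the fibroblast genes with a gene-end peak in both lists, while COL3A1, THY1, LUM and DCN had a gene-end peak in neither. KRT8 and KRT18, epithelial keratin genes that are neighbours, shared the senescent peak of score 76, rank 12, so a high peak was also present at genes outside the fibroblast list.

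Senescent peaks, which cover more of the genome, also covered more of most loci. Peaks covered a larger percent of the locus in senescent cells at 15816 coding genes, in quiescent cells at 138 and equally at 3867. Among 6824 genes with a quiescent peak in the locus, the counts were 6683 and 138. The most quiescent peaks in a locus were 19 at GSE1, a chromatin co-repressor gene, and 18 at SEPTIN9, a cytoskeletal GTPase gene, against 20 and 13 in the shortened senescent list; they were picked with their values known.

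Over the chromosomes compared, the largest relative difference between the equal-sized lists was on X. Chromosome 19, which is gene-dense, held 7.00% of quiescent, 6.43% of shortened senescent and 4.44% of all senescent peaks. Chromosome X held 138 quiescent peaks, 1.42% (1.20 to 1.67), against 52 in the shortened senescent list, 0.535% (0.408 to 0.700), and 1.5% in the whole senescent list. The highest proliferating peaks had 0.596%, so the low share was common to the highest-score cuts of both longer lists. Of the quiescent peaks on X, 15 lay within 160 kb (chrX:115728180-115888528) over the non-coding genes DANT1 and DANT2 at the DXZ4 tandem repeat. Of these, 14 overlapped a senescent and 15 a proliferating peak. The span held 24 senescent peaks over 25.1 kb, 2 of them in the shortened list, and 18 proliferating peaks over 48.2 kb. The quiescent peaks there covered 6.44 kb. Reads of repeated copies cannot be placed with certainty. Without the 1 Mb bin that holds this span the quiescent share was 1.26%.

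The 3 highest peaks of each list were present in the other. The senescent peak of score 103 lay outside genes on chromosome 3 (chr3:150721228-150721456, 17307 bp from ERICH6) and its quiescent counterpart had score 63, rank 25. The other senescent ones were at PPP1R12C, a gene of a myosin phosphatase subunit, with 89 and 29, and inside RASA4B, a Ras GTPase activator gene with a close copy, with 82 and 27. The quiescent ones were 98 at EPHB3, an ephrin receptor gene, against 29 in senescent cells, 87 inside PRDM11 against 40, and 82 at an end of both BRF1 and PACS2 against 52. The quiescent 3 were 167 to 185 bp wide, and the highest site of one state was in each case a site of the other.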

How the data were processed

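R-loops were mapped by MapR in 6 IMR90 libraries, and the peak lists of the 3 made with RH-MNase were used: proliferating, senescent and quiescent, 1 each. The submitters' processing notes list MACS2 2.2.7.1, Bowtie2 2.4.5 and FastQC 0.11.9, with GRCh38 as build. Settings, and any use of GST-MNase libraries as control, are not stated in the sources used here. The authors deposited a score per peak, a whole number of at least 10 of unstated scale; read depth is unknown. No replicates were among the samples.

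Peaks on chromosomes 1 to 22 and X were overlapped (at least 1 bp) with own code in Python 3.11.15 (pandas 2.3.3, numpy 2.4.6), tested on simulated intervals, where 1200 of 1200 planted overlaps were found. The shortened senescent list took the highest scores, ties by width and then position. Genes came from the RefSeq table of GRCh38.p14 (58419 of 59792 entries used); it gives no strand, so a gene end is either end. Promoters came from the RefSeq promoter table.

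Genes were named by rule: up to 10 with a gene-end peak in 1 list and no peak of the other within 5000 bp, the 10 best in both, up to 4 per list, the 3 highest peaks of each list, and DDX1, XPO1, HRAS and NRAS. The members and lists were chosen with earlier results of these data known. Other genes named were chosen after their values were seen; some genes the rule takes are not reported here. Alternatives were equal number, equal covered length, stricter overlap, other windows and score limits.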

Additional observations from a re-analysis of the deposited data

Results flagged for a closer look

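Peaks also lay on unplaced and unlocalized sequences of the build, which the comparison left out. There were 9 quiescent peaks on 5 such sequences and 147 senescent peaks on 30, and 8 of the 9 quiescent ones overlapped a senescent peak. They stand out because they lie outside the chromosomes compared; there is no background list beside them, and their origin was not tested.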

How the results depend on the processing

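The quiescent share in the senescent list (94.1%) was 40.5% at equal number, 20.1% at equal covered length, 21.9% with an overlap of 50% of both peaks, 97.4% within 1000 bp, 88.4% above the median score, 75.8% without peaks over 2000 bp, and 45.3% with 200 bp around each middle. The senescent share in the quiescent list (9.94%) was 35.7%, 42.8%, 2.50%, 12.6%, 9.65%, 8.62% and 5.16% in the same order. The equal-number share (40.5%) was 38.1% with narrow peaks first and 18.4% with the 200 bp windows. The gene-end difference (-34.5 points) was -18.0 at equal number, -16.4 at equal covered length, -30.0 with 500 bp, -33.2 with 3000 bp and -28.2 above the median score. Genes with a quiescent gene-end peak alone (65) were 3089 at equal number, 4312 at equal covered length, 100 with 500 bp and 200 above the median score; senescent alone (8495) were 1525 and 566 in the first 2 of these; genes in both (5431) were 2407, 1184 and, above the median score, 2859. The gene-end difference kept its direction. The quiescent share of overlap was larger than the senescent share except at equal covered length, where the order turned (20.1% against 42.8%). The counts of genes with a peak in 1 list alone turned as well. Senescent alone exceeded quiescent alone with the whole lists, and the reverse held at equal number and at equal covered length. The gene list shares turned likewise, higher in the whole senescent list for all 15 and higher in the quiescent list for 11 of 15 at equal number. The 200 bp windows and 2 other position choices were chosen after seeing the data. Counts for gene lists moved beyond 1.5 times in 48 of 150 cases and named genes changed in 7 of 90. No paired analysis was possible because each state has 1 library, and no replicate could be left out. The cause of these moves was not tested; unknown depth limits every count.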

Other observations

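Genes of small RNAs, measured as loci with any peak, were rare in the quiescent list and also in the shortened senescent list. By the same measure 28.7% of protein-coding genes had a quiescent, 77.4% a senescent and 26.1% a shortened senescent peak. Of 429 tRNA genes 3 had a quiescent, 69 a senescent and 11 a shortened senescent peak. Of 149 snRNA genes the numbers were 0, 10 and 1, and of 1190 snoRNA genes 2, 26 and 4. MicroRNA genes had 38, 208 and 43 of 1911, and lncRNA genes 1551, 7291 and 1633 of 17904. At equal number microRNA and lncRNA genes were thus close in the 2 states, while tRNA genes had 3 against 11. Many of these loci lie inside host genes or near coding starts, and reads of repeated copies cannot be placed with certainty.

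Some regions held many more peaks of 1 state at equal number; their values were known when they were chosen. The 1 Mb bin at 7000001 on chromosome 17 had 41 quiescent and 22 shortened senescent peaks, and the bin at 12000001 on chromosome 19 had 31 and 12. In the other direction the bin at 4000001 on chromosome 19 had 13 and 29, and the bin at 22000001 on chromosome 1 had 3 and 17. CTIF, a translation factor gene, had 4 quiescent and 11 shortened senescent peaks in its locus, and CAMK2B, a calcium-dependent kinase gene, 0 and 6.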
